A study of Mus musculus with 6 samples.

Results

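Midkine (Mdk), pleiotrophin (Ptn) and 6 genes for their receptors were followed in mouse embryonic fibroblasts (MEFs), mixed cultures of connective tissue cells grown from whole embryos. The 8 genes were Mdk, Ptn, Sdc1, Sdc2, Sdc3, Sdc4, Lrp1 and Ptprz1, out of 19938 genes with a name on the array. They were chosen by name, and the rule then took the brightest transcript cluster of each gene by its mean over the 6 arrays. Each of the 8 genes had 1 such cluster, so brightness left nothing to choose. The set was put together with earlier results of these data known, so counts over the 8 genes are a description.

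The study compared 3 Rb1L/L with 3 Rb1+/+ MEF cultures, 1 Affymetrix array per culture. All 6 cultures came from E13.5 embryos, were at passage 4 and were proliferating when total RNA was taken. Rb1 encodes the retinoblastoma protein pRb, which restrains E2F transcription factors, and the L allele is known to alter the cleft by which pRb binds proteins carrying an LXCXE motif. The series title sets the arrays beside work on condensin II at promoters and on divergently paired genes. The genotype is that of the embryo and not of a selected clone, and the labels name MEF pairs without saying what the members of a pair share. Sample titles give only genotype and number. That cultures of the same number form a pair is therefore assumed wherever numbered pairs or a block by number are used below.

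Midkine and pleiotrophin are the only members of a small family of secreted, heparin-binding growth factors. They hold on to the sulfated sugar chains of proteoglycans at the cell surface, among them the syndecans and the receptor phosphatase Ptprz1, and midkine also binds the endocytic receptor Lrp1. Both are made in embryonic mesenchyme and in the developing nervous system, where they act on growth, migration and neurite extension. Midkine was first found as a transcript induced by retinoic acid in mouse embryonal carcinoma cells.

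Pearson correlations of arrays of the same genotype lay between 0.9948 and 0.996, and those of arrays of different genotype between 0.9873 and 0.9927. Array medians ran from log2 6.39 to 6.45, and having 3 arrays a genotype limits the precision. In both genotypes culture 1 was of male type, with Xist at log2 4.79 in Rb1L/L culture 1 and 5.13 in Rb1+/+ culture 1, against 11.44 to 11.61 in the other 4. Rb1 itself measured log2 8.85 to 8.99 in Rb1L/L and 8.61 to 8.99 in Rb1+/+ cultures, and since the L allele is transcribed this level does not check the labels. All 16 fibroblast markers, from Col1a1 to Prrx1, lay above the detection floor described next. So did 15462 of the 19938 named genes and all 11 macrophage and blood markers, so passing the floor does not identify the cells.

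Values are log2 expression after RMA, the method that subtracts background, gives all arrays 1 distribution and summarises the probes of a cluster. Genes entered the test with a 6-array mean over log2 5.081. That floor is the 90th percentile of 1194 genes for olfactory or vomeronasal receptors, taken to be silent in fibroblasts. All 8 genes passed, and each lay above every one of those receptor genes. The passing step used the mean over both genotypes and left no member out. The test was limma's moderated test over all 15462 genes that passed, with Benjamini-Hochberg adjusted p and a threshold of 0.05, and "rose" or "fell" marks a gene past it. Nothing in the labels says how the cultures of a genotype are related, so p-values measure the spread between these samples.

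The promoter windows of 4 of the genes are shown because pRb acts at promoters through E2F, although these arrays do not measure binding. RefSeq windows of 300 bases, from 250 before to 50 after the annotated start on the gene's strand, were at hand for 6 of the 8 genes, with Mdk and Sdc2 named only. The windows below belong to Ptn (chr6:36810130-36810429, minus strand), Sdc1 (chr12:8771146-8771445, plus strand), Lrp1 (chr10:127621099-127621398, minus strand) and Ptprz1 (chr6:22875252-22875551, plus strand), all in GRCm38.p6. Capitals mark the GC box GGGCGG and the E2F motif, searched as TTTCCCGC and TTTGGCGC, each on both strands.
Ptn: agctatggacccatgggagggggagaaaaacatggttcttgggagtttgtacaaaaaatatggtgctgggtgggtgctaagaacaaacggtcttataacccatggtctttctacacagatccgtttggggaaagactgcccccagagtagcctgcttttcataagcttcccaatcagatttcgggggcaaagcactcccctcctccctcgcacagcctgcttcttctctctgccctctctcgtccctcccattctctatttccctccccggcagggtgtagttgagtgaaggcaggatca
Sdc1: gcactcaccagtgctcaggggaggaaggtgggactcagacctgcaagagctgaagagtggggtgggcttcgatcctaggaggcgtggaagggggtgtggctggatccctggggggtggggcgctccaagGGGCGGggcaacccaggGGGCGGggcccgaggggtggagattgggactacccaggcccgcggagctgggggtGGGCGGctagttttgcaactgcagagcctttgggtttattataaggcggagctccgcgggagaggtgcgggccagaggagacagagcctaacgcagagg
Lrp1: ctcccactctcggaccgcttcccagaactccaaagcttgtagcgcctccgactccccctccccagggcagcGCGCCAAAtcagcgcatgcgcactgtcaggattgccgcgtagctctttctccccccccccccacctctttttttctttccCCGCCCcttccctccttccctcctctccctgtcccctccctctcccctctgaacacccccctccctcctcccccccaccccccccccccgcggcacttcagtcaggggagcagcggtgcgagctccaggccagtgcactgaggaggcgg
Ptprz1: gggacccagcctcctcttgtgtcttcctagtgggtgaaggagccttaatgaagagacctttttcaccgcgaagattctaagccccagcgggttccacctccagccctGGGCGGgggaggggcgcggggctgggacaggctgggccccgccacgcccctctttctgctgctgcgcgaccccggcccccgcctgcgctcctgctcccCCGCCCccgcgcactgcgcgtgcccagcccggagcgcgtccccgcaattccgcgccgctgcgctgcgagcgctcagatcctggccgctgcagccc
The Sdc1 window held 3 GC boxes, at bases -121 to -116, -104 to -99 and -49 to -44 from the start, and the Ptprz1 window held 2. The Lrp1 window held 1 GC box and 1 E2F match, GCGCCAAA on the opposite strand at -179 to -172. The Ptn window held neither motif, and no TATA box, searched as TATAAA, was in any of the 6 windows. Among 32851 windows of the same length, 35.7% held the GC box, 1.6% the E2F motif and 13.6% the TATA box. GC content was 52% for Ptn and 66.3% to 77.7% for the other 5 genes, against a median of 52.7% over all windows. A match describes the letters of a window and is not a binding site.

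Of the 8 genes, 2 rose in Rb1L/L cultures, Mdk and Sdc1, and none fell. Over all 15462 genes tested, 12.2% passed the threshold, 7.1% higher and 5.08% lower. The median log2 fold change of the 8 genes was 0.24, against -0.02 over all genes tested. With the culture number as a block, Ptn and Ptprz1 rose as well, which made 4 of 8, against 14.4% of all genes in that fit (7.99% higher). The groups did not overlap for 4 of the 8, Mdk, Sdc1, Sdc3 and Lrp1, and this held for 34.5% of all genes tested. All 3 numbered pairs differed in 1 direction for 52.3% of all genes tested.

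**Figure D1:**
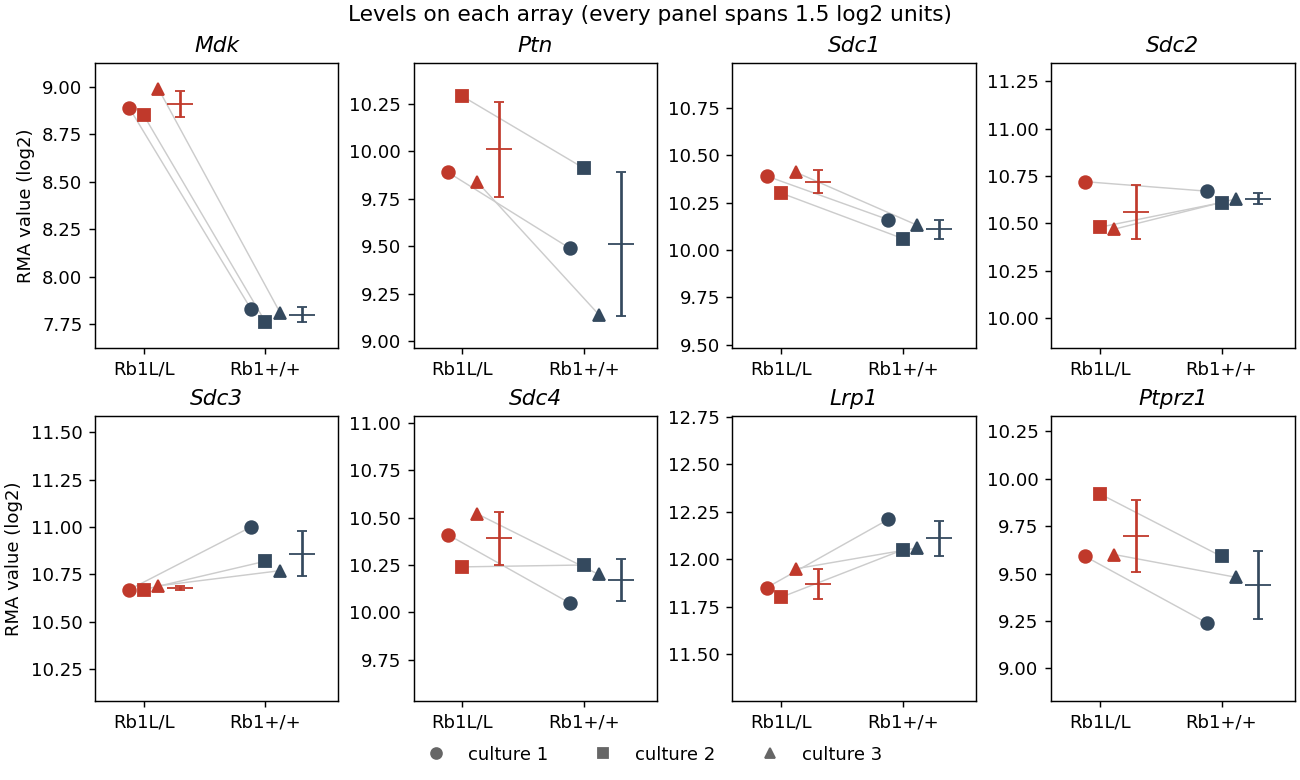
RMA values (log2, vertical axes) of the 8 genes on each array, Rb1L/L left and Rb1+/+ right in every panel; marker shapes give the culture number, grey lines join cultures of the same number, and bars show the mean and SD (n = 3). Every panel spans 1.5 log2 units, so the separation of Mdk can be set against the smaller shifts of the other genes.

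Among the ligands, Mdk (transcript cluster 10485070, chromosome 2) was measured at log2 8.89, 8.85 and 8.99 in Rb1L/L cultures 1, 2 and 3, against 7.83, 7.76 and 7.81 in Rb1+/+ cultures 1, 2 and 3. The lowest Rb1L/L culture stood a full log2 unit above the highest Rb1+/+ culture, and the spread within each genotype was small. Mdk averaged 8.91 ± 0.07 in Rb1L/L and 7.80 ± 0.04 in Rb1+/+ cultures (SD, n = 3 each), and rose 2.15-fold (95% interval 1.96 to 2.37; limma adjusted p = 0.000262). The differences between cultures of the same number were 1.06, 1.09 and 1.18 on the log2 scale. By size of increase Mdk ranked 48th and by p-value 3rd among the 15462 genes tested. It rose in each of 17 alternative fits, with log2 fold changes of 1.07 to 1.14 and adjusted p of at most 0.0172, the highest being that without both cultures 3.

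Ptn (cluster 10543959, chromosome 6) encodes the sister growth factor and was measured at log2 9.89, 10.29 and 9.84 in Rb1L/L cultures 1, 2 and 3, against 9.49, 9.91 and 9.14 in Rb1+/+ cultures 1, 2 and 3. The genotypes overlapped, since Rb1+/+ culture 2 stood above Rb1L/L cultures 1 and 3, while culture 2 was the highest of its genotype in both. The fold change was 1.41 (95% interval 1.04 to 1.91), with log2 0.49 ± 0.19 (SE) and a limma adjusted p of 0.129. Within the numbered pairs Rb1L/L was higher by 0.40, 0.38 and 0.70. With the number as a block the standard error was 0.08 and Ptn rose (limma adjusted p = 0.0111). Without Rb1+/+ culture 2 the unblocked log2 fold change was 0.69 (limma adjusted p = 0.0401), the only 1 of the 6 fits without 1 culture that passed. It was 0.31 without Rb1+/+ culture 3 (limma adjusted p = 0.292) and 0.35 without Rb1L/L culture 2 (0.321).

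Profiles were compared by the root mean square distance between gene-centred log2 values over the 6 arrays. Predicted genes and small RNAs were left out by symbol (such as Gm with digits, Rik, Mir or Snord). The profile most like that of Mdk then belonged to Psme2, which encodes a proteasome activator subunit (distance 0.077). Nsg1 (0.112), Phyhip (0.122), Bves (0.125) and Tap1 (0.125) followed. Their log2 fold changes were 1.19, 0.92, 1.13, 1.07 and 0.99; the distance takes in the genotype step of Mdk, so these values follow from how the genes were picked. For Ptn the nearest profiles were those of Vax2 (0.129), Nuf2 (0.13), Fam136a (0.132), Cdh3 (0.134) and Hoxc6 (0.134). None of these passed the threshold without the block. Vax2, Nuf2, Fam136a and Cdh3 passed with it (limma adjusted p = 0.00936 to 0.0419), against 14.4% of all genes tested. Ptn itself passed with the block and not without it. The distance takes in the values of Ptn, so these calls too follow from how the genes were picked. Ptprz1 was the 349th nearest gene to Ptn when no tested gene was left out, at a distance of 0.241.

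**Figure D2:**
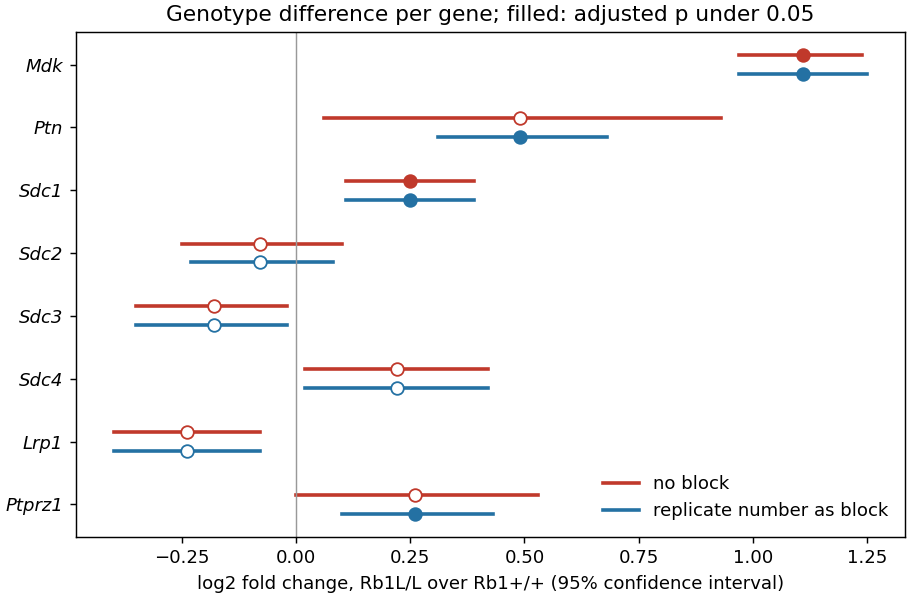
Log2 fold change of Rb1L/L over Rb1+/+ (horizontal axis) for the 8 genes with 95% confidence intervals, without a block (red) and with the culture number as a block (blue); filled points have a limma adjusted p under 0.05. The intervals of Ptn and Ptprz1 are narrower with the block, and those of Mdk, Sdc1 and Lrp1 differ little between the fits.

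The syndecans are transmembrane proteoglycans whose heparan sulfate chains bind midkine, pleiotrophin and many other growth factors. Of their 4 genes, Sdc1 rose and the other 3 did not pass. Sdc1 (cluster 10394471, chromosome 12), the syndecan best known from epithelia and plasma cells, was measured at log2 10.39, 10.30 and 10.41 in Rb1L/L cultures 1, 2 and 3, against 10.16, 10.06 and 10.13 in Rb1+/+ cultures 1, 2 and 3. The groups did not overlap, and each numbered pair differed the same way, by 0.23, 0.24 and 0.28. Such agreement of the 3 pairs was common (52.3% of all genes tested). Sdc1 rose 1.19-fold (95% interval 1.08 to 1.31; limma adjusted p = 0.0344). Leaving out any one of the 6 cultures ended the call, with adjusted p of 0.0629 to 0.112 and a log2 fold change of 0.22 to 0.28.

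Sdc4 (cluster 10489484, chromosome 2), a syndecan of focal adhesions, was measured at log2 10.41, 10.24 and 10.52 in Rb1L/L cultures 1, 2 and 3, against 10.05, 10.25 and 10.20 in Rb1+/+ cultures 1, 2 and 3. The groups overlapped through culture 2, whose pair differed by -0.02, while pairs 1 and 3 differed by 0.36 and 0.32. The log2 fold change was 0.22 (95% interval 0.02 to 0.42; limma adjusted p = 0.139). Sdc4 did not pass in any of the 17 alternatives.

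Sdc2 (cluster 10423548, chromosome 15), a syndecan typical of mesenchymal cells, was measured at log2 10.72, 10.48 and 10.47 in Rb1L/L cultures 1, 2 and 3, against 10.67, 10.61 and 10.63 in Rb1+/+ cultures 1, 2 and 3. Rb1L/L culture 1 was the highest of all and the other 2 the lowest, so the groups overlapped. The log2 fold change was -0.08 (95% interval -0.25 to 0.10; limma adjusted p = 0.557). The interval leaves room for changes of that size in either direction.

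Sdc3 (cluster 10508651, chromosome 4), the syndecan of neurons and the one through which pleiotrophin is known to prompt neurite outgrowth in rat, was measured at log2 10.67, 10.67 and 10.69 in Rb1L/L cultures 1, 2 and 3, against 11.00, 10.82 and 10.77 in Rb1+/+ cultures 1, 2 and 3. The Rb1L/L cultures lay close together and all below the Rb1+/+ cultures, which spread more widely. The log2 fold change was -0.18 (95% interval -0.35 to -0.02), with a limma adjusted p of 0.129, and Sdc3 did not pass in any of the 17 alternatives. The difference between the fold changes of the 4 syndecans was not tested.

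Lrp1 (cluster 10373223, chromosome 10) encodes a large endocytic receptor of the LDL receptor family that takes up midkine among many other ligands. It was measured at log2 11.85, 11.80 and 11.95 in Rb1L/L cultures 1, 2 and 3, against 12.21, 12.05 and 12.06 in Rb1+/+ cultures 1, 2 and 3. All Rb1L/L cultures lay below all Rb1+/+ cultures, and the pairs differed by -0.36, -0.26 and -0.11. The log2 fold change was -0.24 (95% interval -0.40 to -0.08) with a limma adjusted p of 0.0584, which missed the threshold. Lrp1 passed with trended variances (adjusted p = 0.0275), with array weights (0.0469) and among genes with a mean above log2 6 (0.0486). It did not pass with the replicate block (0.0598), nor in any fit that left a culture out (0.064 to 0.304).

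Ptprz1 (cluster 10536667, chromosome 6) encodes a receptor tyrosine phosphatase that carries chondroitin sulfate and is best known from glia and their precursors; pleiotrophin binding is known to curb its phosphatase activity. It was measured at log2 9.59, 9.92 and 9.60 in Rb1L/L cultures 1, 2 and 3, against 9.24, 9.59 and 9.48 in Rb1+/+ cultures 1, 2 and 3. Culture 2 was the highest of its genotype in both, as for Ptn, and the groups overlapped. The log2 fold change was 0.26 (95% interval 0.00 to 0.53; limma adjusted p = 0.177), and the pairs differed by 0.35, 0.33 and 0.12. With the number as a block Ptprz1 rose (limma adjusted p = 0.047), close to the threshold.

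Because Ptn, Ptprz1 and Sdc3 are also genes of neural cells, neural and glial markers are given beside them. Of 15 named markers 13 lay above the floor, and 3 of these fell, Fabp7 (-0.50), Ncam1 (-0.30) and Tubb3 (-0.48), and none rose. The share that fell was 23.1%, beside 5.08% of all genes tested, of which 7.1% rose. The median log2 fold change of the 13 was -0.05, beside -0.02 over all genes tested. The levels of the 15, summed on the linear scale, ranged from 4928 to 5082 in Rb1L/L and from 5872 to 6266 in Rb1+/+ cultures. Such a sum follows its brightest members, here Ncam1 at log2 11.48 to 11.53 in Rb1L/L and 11.80 to 11.83 in Rb1+/+ cultures. Sdc3 (-0.18), Ptn (0.49) and Ptprz1 (0.26) did not pass without the block, and a link between them and these markers was not tested. Among glial markers, Fabp7, Sox10 and Slc1a3 averaged log2 9.72, 6.65 and 6.48 over the 6 arrays, Gfap, S100b and Olig1 averaged 5.51, 5.15 and 5.22, and Olig2, like the neuronal marker Dcx, lay below the floor. In bulk RNA, fewer cells of a type and less RNA per cell cannot be told apart.

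For the other cell types, 11 macrophage and blood markers summed to 2687 to 3977 in Rb1L/L and 2320 to 3780 in Rb1+/+ cultures, with 2 that rose and 1 that fell. The 11 named epithelial markers, listed beside Sdc1, summed to 1440 to 1521 in Rb1L/L and 1285 to 1506 in Rb1+/+ cultures. None of the 7 above the floor passed, and Epcam, Cldn7, Esrp1 and Grhl2 were below it. Endothelial markers summed to 835 to 974 in Rb1L/L and 763 to 1039 in Rb1+/+ cultures, with 1 of 9 that rose, and cartilage, bone and muscle markers to 1455 to 1478 in Rb1L/L and 1501 to 1678 in Rb1+/+ cultures, with none of 8 past the threshold. The fibroblast markers summed to 51774 to 52543 in Rb1L/L and 54952 to 57067 in Rb1+/+ cultures, and 2 of 16 fell, or 3 with the replicate block, which added Dcn (adjusted p = 0.0346). Beside these counts, 7.1% of all genes tested rose and 5.08% fell, and 6.45% fell with the replicate block. The part of these markers in the values of the 8 genes was not tested.

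Around the 8 genes stood 9 lists of related genes, with 143 different genes above the floor. Of these, 7 rose and 11 fell, or 4.9% and 7.69%, beside 7.1% and 5.08% of all genes tested, and the median log2 fold change was -0.06. With the replicate block 7 rose and 15 fell, beside 7.99% and 6.45% of all genes. The list of other midkine and pleiotrophin receptors, among them Alk, Ltk, nucleolin, Notch2, neuropilin 1 and several integrin subunits, had none of 18 past the threshold. The smallest p-values there belonged to the proteoglycan genes Cspg4 (0.20, limma adjusted p = 0.109) and Bcan (-0.21, adjusted p = 0.112). Alk, the receptor tyrosine kinase, averaged log2 5.55 in Rb1L/L and 5.47 in Rb1+/+ cultures, near the floor.

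**Figure D3:**
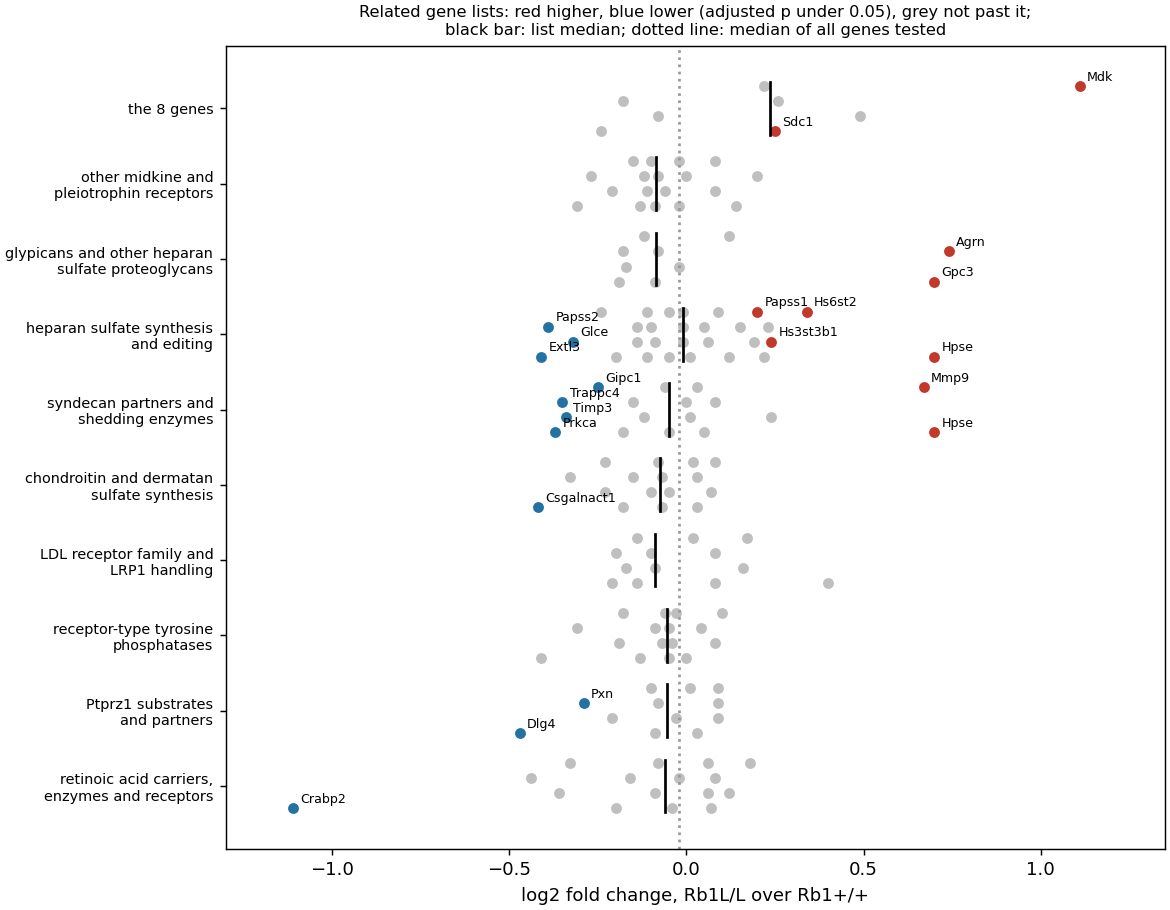
Log2 fold change of Rb1L/L over Rb1+/+ (horizontal axis) for the 8 genes and for 9 lists of related genes, 1 point per gene; red points rose, blue points fell (limma adjusted p under 0.05) and grey points did not pass. Black bars are list medians, which for the 9 lists lie between -0.09 and -0.01, and the dotted line is the median of all genes tested.

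Among glypicans and other heparan sulfate proteoglycans, 2 of 10 rose and none fell, beside 7.1% and 5.08% of all genes tested. Gpc3, a glypican tethered to the membrane by a lipid anchor, was measured at log2 9.84, 9.65 and 9.77 in Rb1L/L cultures 1, 2 and 3, against 8.95, 9.07 and 9.14 in Rb1+/+ cultures 1, 2 and 3. The groups lay well apart, and Gpc3 rose by log2 0.70 ± 0.07 (SE; limma adjusted p = 0.00295). Agrn, which encodes the basement membrane proteoglycan agrin, rose by 0.74 ± 0.17 (adjusted p = 0.032), and by 0.54 without Rb1+/+ culture 1 (adjusted p = 0.0581); it also missed the threshold without Rb1L/L culture 2 or 3. The remaining 8 had log2 fold changes between -0.19 and 0.12.

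Of 29 genes for enzymes that build and edit heparan sulfate, 4 rose and 3 fell. These were 13.8% and 10.3%, beside 7.1% and 5.08% of all genes tested. Hpse, which encodes heparanase, the enzyme that cuts the chains of syndecans and other proteoglycans, was measured at log2 7.08, 7.14 and 6.98 in Rb1L/L cultures 1, 2 and 3, against 6.38, 6.44 and 6.27 in Rb1+/+ cultures 1, 2 and 3. It rose by 0.70 ± 0.07 (SE; limma adjusted p = 0.00265) with no overlap. The 3-O-sulfotransferase gene Hs3st3b1 rose by 0.24, while Extl3, whose enzyme starts the chain, fell by 0.41, Papss2, which makes the sulfate donor, fell by 0.39, and the epimerase gene Glce fell by 0.32 (adjusted p = 0.0129 to 0.032). Papss1 (0.20) and Hs6st2 (0.34) also rose and were named after their values were seen; Papss1 missed the threshold with the replicate block (adjusted p = 0.0669). Of the chondroitin and dermatan sulfate enzymes, which build the kind of chain Ptprz1 carries, Csgalnact1 fell by 0.42 (adjusted p = 0.0469) and the other 15 did not pass; with the replicate block Chpf2 (-0.23) fell as well (adjusted p = 0.0441).

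Of 17 syndecan partners and shedding enzymes, 2 rose and 4 fell, and Hpse, which both lists hold, was 1 of those that rose. The shares were 11.8% and 23.5%, beside 7.1% and 5.08% of all genes tested. With the replicate block Tiam1 (0.24) rose as well (adjusted p = 0.0371, or 0.0669 without it). Prkca, the protein kinase C isoform that binds the syndecan-4 tail, fell by 0.37 and Gipc1, which binds the same tail, by 0.25. Trappc4, also called synbindin for its binding to syndecan-2, fell by 0.35, and Timp3, an inhibitor of the metalloproteinases that shed syndecans, by 0.34 (limma adjusted p = 0.0236 to 0.0441 for these 4). Mmp9, a matrix metalloproteinase known to shed syndecans, rose by 0.67 (adjusted p = 0.0452) and was named after its value was seen. Sdcbp, which encodes the syndecan adaptor syntenin, and the shedding enzyme genes Adam10, Adam17 and Mmp14 had log2 fold changes of -0.05, 0.00, 0.03 and 0.05.

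None of 13 genes of the LDL receptor family and of Lrp1 handling passed; the smallest p-values were those of Furin, whose protease cuts the Lrp1 precursor (-0.20, limma adjusted p = 0.0693), and Lrp2 (0.40, adjusted p = 0.0811). None of 16 other receptor-type tyrosine phosphatase genes passed either, with Ptprn at -0.18 and Ptprd at -0.41 (adjusted p = 0.128), which fell in the fit with the replicate block (adjusted p = 0.011). Of 12 substrates and partners of Ptprz1, Dlg4, a scaffold protein known to bind its tail, fell by 0.47 (adjusted p = 0.00593), and Pxn, the focal adhesion adaptor paxillin, fell by 0.29 (adjusted p = 0.0231). None of the 12 rose, and 16.7% fell, beside 5.08% of all genes tested. The substrate genes Ctnnb1, Fyn and Git1 had log2 fold changes of 0.09, 0.09 and -0.10.

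Of 16 genes for retinoic acid carriers, enzymes and receptors, 1 fell and none rose, and 3 fell with the replicate block. Of all genes tested 5.08% fell, and 6.45% with that block. Crabp2, a carrier of retinoic acid, was measured at log2 8.77, 8.32 and 9.51 in Rb1L/L cultures 1, 2 and 3, against 9.93, 9.74 and 10.26 in Rb1+/+ cultures 1, 2 and 3. It fell by 1.11 (limma adjusted p = 0.0351). Its change ran from -0.83 to -1.43 over the alternatives, past the threshold in 1 of the 6 fits without a culture. Crabp1, another carrier of retinoic acid, was higher by 0.18 and did not pass (limma adjusted p = 0.0941). Of the 16 genes, 6 had log2 fold changes above 0 and 10 below, where 8719 of all 15462 genes tested also lay below 0. A link between these genes and Mdk was not tested. Rarb (-0.44) and Rdh10 (-0.33) did not pass without the block (adjusted p = 0.115 and 0.103) and fell with it (0.0261 and 0.0172). Of the 18 genes of these lists that passed, 3 (Gpc3, Hpse and Dlg4) passed in all 6 fits without 1 culture, and the other 15 lost the threshold in at least 1 of them. Of those 15, Crabp2, Gipc1, Hs3st3b1, Hs6st2, Mmp9 and Papss1 passed in at most 1 of the 6.

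**Figure D4:**
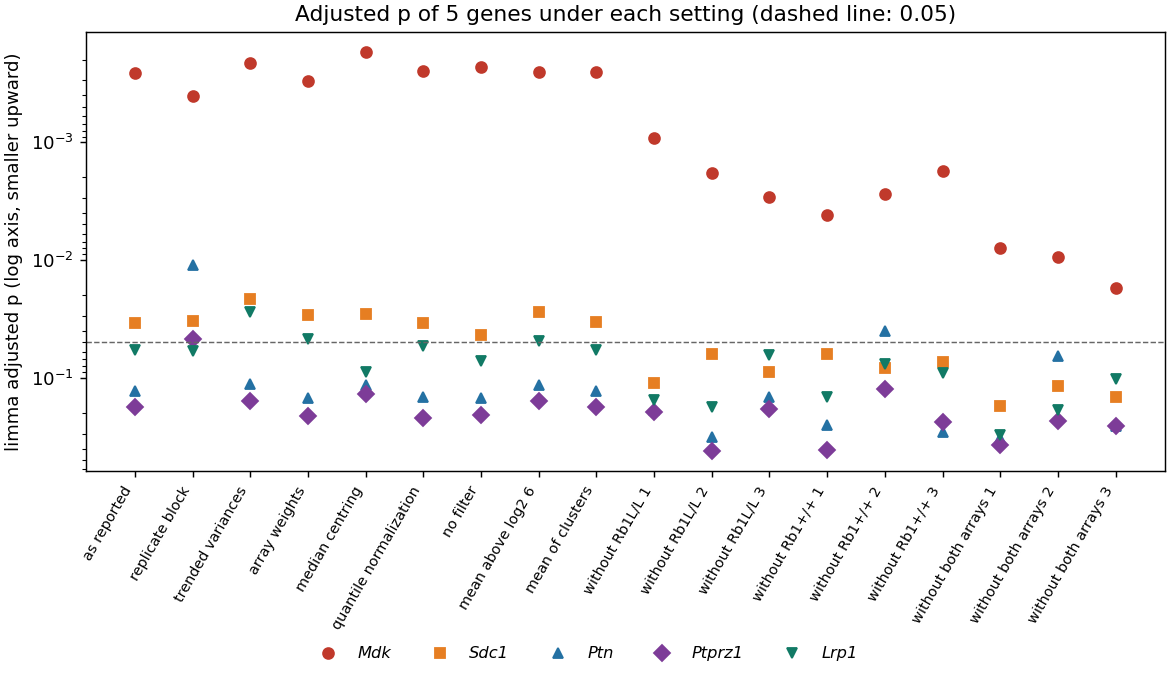
Limma adjusted p (log axis, smaller values upward) of Mdk, Sdc1, Ptn, Ptprz1 and Lrp1 as reported and under 17 alternative settings; the dashed line is 0.05. Mdk lies above the line throughout, Sdc1 drops below it whenever a culture is left out, Ptn and Ptprz1 cross it with the replicate block, Ptn also without Rb1+/+ culture 2, and Lrp1 under 3 settings.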

How the data were processed

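RNA of 3 Rb1L/L and 3 Rb1+/+ cultures was hybridised to 1 Affymetrix array each. The deposited table holds log2 values; RMA and Partek are named per the submitters' processing notes, with versions, settings and genome build not given in the sources used here. This method would remove a change shared by most genes and compresses folds of dim genes. Of 35556 transcript clusters, 21789 had 1 gene symbol in the platform annotation, 1621 several and 12146 none there; 21698 were matched to RefSeq (GRCm38.p6) for current symbols, and the brightest cluster stood for each gene.

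The genotype contrast was fitted in R 4.3.3 by limma 3.58.1 (lmFit, then eBayes, with no block), after a test on simulated data. Same-numbered arrays deviated together from their group means (correlations 0.30, 0.24 and 0.30 over tested genes). Other matchings of the arrays were not compared, so these correlations do not show that the numbers mark pairs. The design text speaks of pairs, so blocked values are given where they change a call. The members, lists and alternatives were chosen with earlier results of these data known. Named genes were the 8 members, in each list up to 5 past the threshold by smallest p (or else the 2 of smallest p), 5 nearest profiles each for Mdk and Ptn, and Rb1. Markers were named beside them. Alk, Sdcbp, Adam10, Adam17, Mmp14, Ctnnb1, Fyn, Git1, Rarb, Rdh10, Crabp1, Tiam1 and Chpf2 fall outside this rule and were named with their values seen. The 17 alternatives covered the block, trended variances, array weights, median centring, quantile normalization, 2 filters, the mean of clusters, and leaving out 1 array or both of a number.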

Additional observations from a re-analysis of the deposited data

How the results depend on the processing

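All 8 genes kept their direction in the 17 alternatives. The block, trended variances, the 2 filters and the mean of clusters could not move these fold changes, only their p-values. Direction was therefore open to change only in the other settings. With the replicate block, Ptn (0.49, adjusted p = 0.0111) and Ptprz1 (0.26, adjusted p = 0.047) passed, so that 4 of the 8 rose; the block ended or added no other call among the 8. Lrp1 passed with trended variances (-0.24), array weights (-0.25) and a floor of log2 6 (-0.24), each giving 1 gene that fell. Without 1 array or both arrays of a number, log2 fold changes ranged from 1.07 to 1.14 for Mdk, 0.31 to 0.69 for Ptn, 0.22 to 0.28 for Sdc1, -0.16 to -0.04 for Sdc2, -0.24 to -0.11 for Sdc3, 0.15 to 0.34 for Sdc4, -0.31 to -0.18 for Lrp1 and 0.15 to 0.34 for Ptprz1, and 1 to 2 of the 8 rose. In those fits, with fewer arrays, 92 to 1441 of all genes passed, against 1883 with all 6 arrays (87 to 850 against 1098 higher, 5 to 591 against 785 lower), as did 1 to 4 higher and 0 to 13 lower genes of the related lists, against 7 and 11. Without a filter, 4 genes of those lists rose. Median centring gave 1259 genes higher and 597 lower. For 21 named genes of the lists, 270 of 356 alternative values stayed on the same side of the threshold, 84 no longer passed, 2 newly passed and none changed sign. Cspg4, Bcan, Furin, Lrp2, Ptprn and Ptprd were among the 21 and had not passed, so they had no call to lose. Papss1, Hs6st2 and Mmp9, which had passed, were not among them. Depth does not apply to arrays, and all 8 genes lay above the signal of the receptor genes that set the floor.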
